A study of Zea mays with 18 samples.

Results

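The genes of alcoholic and lactic fermentation were examined in maize roots that had been starved of N and then supplied with nitrate (NO3-) or with chloride for 2 h. All genes of the deposited table described as pyruvate decarboxylase (PDC) or L-lactate dehydrogenase (LDH) were taken, together with those whose protein name begins with alcohol dehydrogenase 1 or alcohol dehydrogenase 2 (ADH). This gave 12 of 47334 genes, of which 6 were PDC, 2 ADH and 4 LDH genes. One of them, the PDC1 gene Zm00001d010588, had been selected because it fell strongly in wild-type (WT) roots. The values of the NO3- response in WT are therefore given as a description, without a test, as is every comparison of Zm00001d010588 that uses WT libraries.

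PDC removes carbon dioxide from pyruvate to form acetaldehyde, and ADH reduces acetaldehyde to ethanol. LDH reduces pyruvate to lactate. Both branches re-oxidise the NADH made in glycolysis when respiration cannot, and in maize roots they are known from flooding and oxygen shortage, where ADH1 is a classical induced protein. NO3- is itself an acceptor of reducing power, since its reduction to nitrite by nitrate reductase uses NADH.

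Transcripts of whole roots were measured by RNA-seq in 3 genotypes and under 2 treatments, with 3 biological replicates in each of the 6 groups and 18 libraries in all. All groups had 10 days of full nutrient solution, then 4 days without N, and finally received 5 mM KNO3 or 5 mM KCl for 2 h, so that potassium was the same in both. The difference between KNO3 and KCl within a genotype is called its NO3- response. The genotypes were WT, *zmnrt1.1b*, mutated in the NO3- transporter gene ZmNRT1.1B, and *zmnlp3.1*, mutated in a gene for a NIN-like protein, a family of transcription factors of NO3- signalling. The study describes loss-of-function alleles made by CRISPR/Cas9 in the inbred line ND101 for both mutants, while the deposited labels call both mutants knockdowns. The inbred line of the WT roots is not stated outright there. Each mutant is 1 genotype label, and which edited line was sequenced is not stated in the sources used here.

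Levels are given as deposited as FPKM, fragments on a gene scaled to its length and by a size factor for each library, so that genes can be compared per length. Between 16955904 and 19116969 reads per library (median 17992374) were recovered from the FPKM values. The deposited scaling differed from these read totals by factors of 0.925 to 1.11. Of 12 genes that mark root tissue (Casparian strip, SCARECROW and SHORT-ROOT proteins), 11 reached 1 FPKM in some library, and their summed level under KCl and KNO3 was 104 to 126 and 103 to 136 FPKM in WT, 75.5 to 107 and 69.7 to 93.8 in *zmnrt1.1b*, and 112 to 120 and 98.7 to 102 in *zmnlp3.1*. Under KNO3 both mutants thus lay below WT, and in *zmnlp3.1* the KNO3 libraries lay below the KCl libraries. Of 45 genes that mark green shoots, 17 reached 1 FPKM in some library and 8 were at 0 in every library. Their summed level was 35.4 to 36.5 FPKM in WT under KCl, 50.6 to 64.2 in WT under KNO3, 40.7 to 46.2 and 30.1 to 39.8 in *zmnrt1.1b*, and 23.3 to 38.1 and 33.0 to 39.5 in *zmnlp3.1*. The green shoot level under KNO3 lay above that under KCl in WT, below it in *zmnrt1.1b* and overlapped it in *zmnlp3.1*. The part of both marker lists in the results below was not tested. In whole roots, fewer cells of a type cannot be told apart from less RNA per cell.

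Of the 12 members, 7 had at least 1 FPKM in at least 3 libraries and were tested among 26011 such genes. The other 5 gave little or no signal. The PDC genes Zm00001d019176 on chromosome 7 and Zm00001d024112 on chromosome 10 and the LDH fragments Zm00001d037686 on chromosome 6 and Zm00001d011085 on chromosome 8 were at 0 in every library, where a count of 0 allows up to 0.121, 0.169, 0.486 and 0.346 FPKM in the library with the highest limit. These limits are the value of 3 reads and cover counting error only. The table describes Zm00001d024112 as PDC3 by similarity to a rice protein, but the protein domains it lists for this gene are not those of a PDC. Another PDC3 gene, Zm00001d022579 on chromosome 7, reached at most 0.204 FPKM, from 7 reads, and had 23 reads over the 18 libraries. No tested member overlapped another gene of the table. How far reads could be split between similar members was not examined, since no sequence of this genome build was used here.

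**Figure D1:**
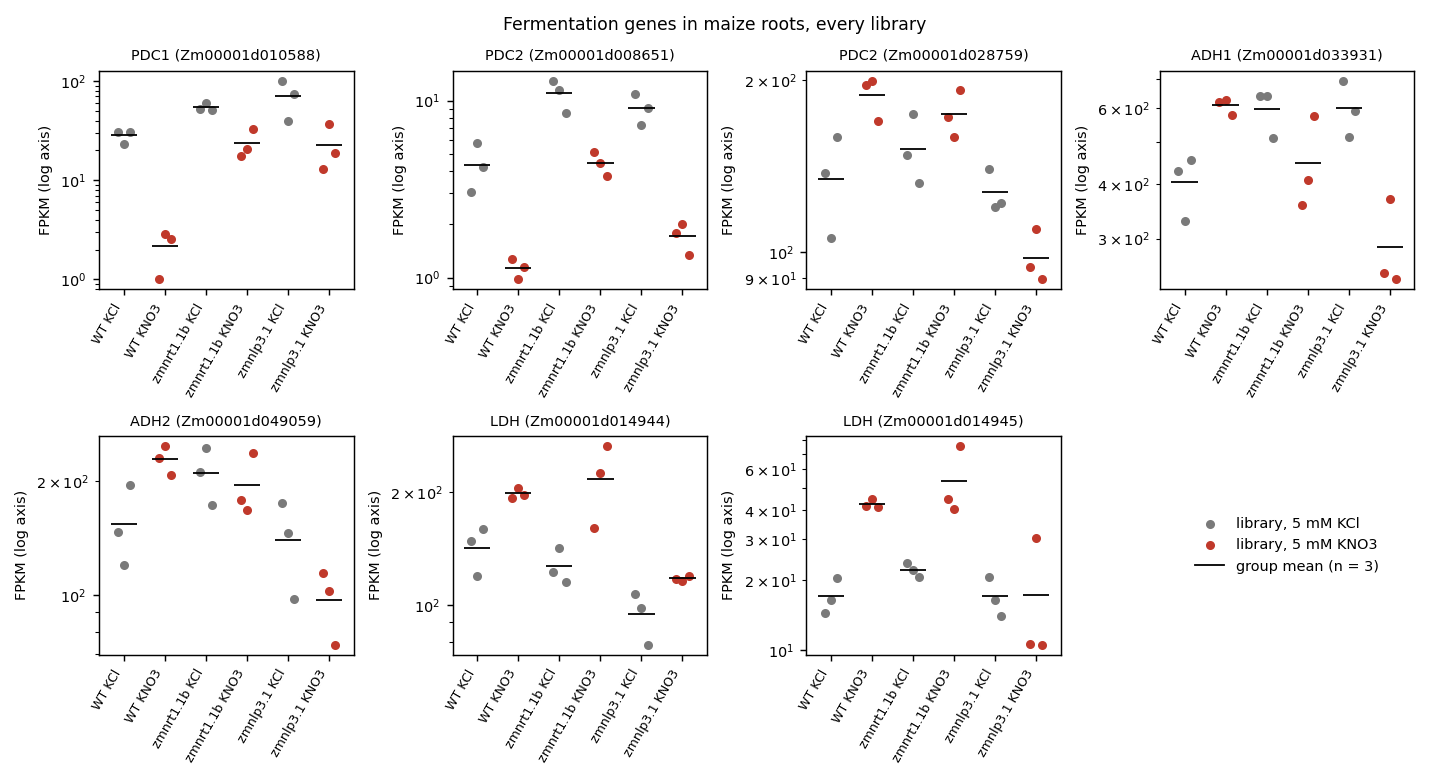
FPKM of the 7 tested fermentation genes (log axes, with a scale of its own in each panel), with 1 point per library and a line at the mean of each group of 3. Under KNO3, Zm00001d010588 was at 0.999 to 2.89 FPKM in WT and at 12.9 to 36.9 FPKM in the mutants, while the ADH1 gene was highest in WT and lowest in *zmnlp3.1*.

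The PDC genes did not move together. The gene selected for its fall, Zm00001d010588, lies on chromosome 8 (121126170 to 121128814, plus strand, B73 RefGen_v4) and is described as PDC1. In WT it had 30.9, 23.3 and 30.6 FPKM under KCl and 0.999, 2.89 and 2.57 FPKM under KNO3. In *zmnrt1.1b* it had 52.1, 60.2 and 51.3 FPKM under KCl and 17.4, 20.6 and 32.8 FPKM under KNO3. In *zmnlp3.1* it had 101, 39.7 and 73.6 FPKM under KCl and 12.9, 36.9 and 18.9 FPKM under KNO3. In each genotype all KNO3 libraries lay below all KCl libraries, and between 43 and 4584 reads stood behind a value.

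Ordered by group mean, Zm00001d010588 was lowest in WT under KNO3 with 2.15 ± 1.01 FPKM (SD, n = 3). It followed in *zmnlp3.1* and *zmnrt1.1b* under KNO3 with 22.9 ± 12.5 and 23.6 ± 8.14 FPKM and in WT under KCl with 28.3 ± 4.29 FPKM (SD, n = 3 each), and the libraries of these neighbouring groups overlapped. The mutants under KCl were highest, at 54.5 ± 4.90 FPKM for *zmnrt1.1b* and 71.5 ± 30.8 FPKM for *zmnlp3.1* (SD, n = 3 each). These 2 groups overlapped each other but no other group. The level of Zm00001d010588 in the mutants after NO3- supply was near that of WT under KCl.

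The log2 difference of Zm00001d010588 between KNO3 and KCl, on the scale of log2(FPKM + 0.1) used throughout, was −3.77 in WT, the value behind its selection. Among libraries that the selection did not use, it fell by 1.25 (SE 0.41) in *zmnrt1.1b* and by 1.68 (SE 0.41) in *zmnlp3.1* on that scale (adjusted p = 0.0497 and 0.0139, limma with Benjamini-Hochberg adjustment over all genes tested). As a description, the difference from WT was 0.95 and 1.25 under KCl and 3.47 and 3.34 under KNO3 in *zmnrt1.1b* and *zmnlp3.1*, respectively, each against the same WT libraries. The NO3- response was weaker than in WT by 2.52 in *zmnrt1.1b* and by 2.09 in *zmnlp3.1*. Between the mutants, no difference was found under KCl (0.29, 95% interval −0.58 to 1.16), under KNO3 (−0.13, −1.0 to 0.74) or in the response (−0.42, −1.65 to 0.81), with adjusted p = 0.697, 0.859 and 0.809 from limma. The call in *zmnrt1.1b* was lost in 5 of 6 fits that left out a library, that is without KCl replicates 2, 3 or 4 or KNO3 replicates 2 or 4 (adjusted p up to 0.138, values from −1.52 to −1.06 over the 6 fits), and the call in *zmnlp3.1* was lost without KCl replicate 1 or KNO3 replicates 2 or 4 (adjusted p = 0.0686, 0.0595 and 0.0533). The call in *zmnlp3.1* was also lost in the fit of only the groups compared (adjusted p = 0.0859, limma).

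A weakly expressed PDC gene on the same chromosome fell as well. Zm00001d008651 (chromosome 8, 15983269 to 15986705, minus strand), described as PDC2, had 3.04, 5.77 and 4.2 FPKM under KCl and 1.27, 0.977 and 1.15 FPKM under KNO3 in WT. It had 13.0, 11.6 and 8.56 FPKM under KCl and 5.10, 4.43 and 3.77 FPKM under KNO3 in *zmnrt1.1b*. In *zmnlp3.1* it had 10.8, 7.27 and 9.08 FPKM under KCl and 1.78, 2.0 and 1.34 FPKM under KNO3. All KNO3 libraries lay below all KCl libraries in each genotype, and at each treatment every *zmnrt1.1b* library lay above every WT library. Its log2 response was −1.81 in WT, −1.29 (SE 0.23, adjusted p = 0.00225, limma) in *zmnrt1.1b* and −2.34 (SE 0.23, adjusted p = 2.76e-05, limma) in *zmnlp3.1*.

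Against WT, Zm00001d008651 was higher in *zmnrt1.1b* by 1.35 under KCl and by 1.87 under KNO3 (adjusted p = 0.0034 and 7.62e-05, limma). In *zmnlp3.1* it was higher by 1.08 under KCl (adjusted p = 0.00874), while under KNO3 its difference of 0.54 did not pass the test (adjusted p = 0.0863, limma). Under KNO3 it was lower in *zmnlp3.1* than in *zmnrt1.1b* by a log2 difference of −1.33 (adjusted p = 0.00152, limma). The calls of its response in both mutants and of its level in *zmnrt1.1b* against WT held without any single library. That in *zmnlp3.1* under KCl did not hold without WT KCl replicate 1 (0.85, adjusted p = 0.0505) or without *zmnlp3.1* KCl replicate 1 (0.94, under the required fold). It was also lost in the fit of only the groups compared (adjusted p = 0.0661, limma) and with a pseudocount of 1 FPKM (0.93).

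The most abundant PDC gene behaved differently. Zm00001d028759 (chromosome 1, 45724685 to 45729020, minus strand), also described as PDC2, had 137, 106 and 159 FPKM under KCl and 196, 199 and 170 FPKM under KNO3 in WT. In *zmnrt1.1b* the values were 148, 174 and 132 FPKM under KCl and 172, 159 and 192 FPKM under KNO3. In *zmnlp3.1* they were 140, 120 and 122 FPKM under KCl and 93.9, 109 and 89.5 FPKM under KNO3. The KNO3 libraries lay above the KCl libraries in WT, overlapped them in *zmnrt1.1b* and lay below them in *zmnlp3.1*. The log2 response was 0.51 in WT, 0.21 in *zmnrt1.1b* (adjusted p = 0.367) and −0.38 in *zmnlp3.1* (adjusted p = 0.102, limma), so neither mutant response passed the test on its own. The response in *zmnlp3.1* differed from that in WT by −0.89 (SE 0.21, adjusted p = 0.0251, limma), below the required fold, with adjusted p up to 0.0702 when a library was left out. Under KNO3 the level was lower in *zmnlp3.1* than in WT by a log2 difference of −0.95 (adjusted p = 0.0003, limma).

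These differences shifted the make-up of the PDC transcripts. Zm00001d010588 gave 17.0 ± 1.14% of the summed PDC level in WT under KCl and 1.14 ± 0.549% under KNO3 (SD, n = 3 each). For *zmnrt1.1b* the shares were 25.2 ± 1.32% and 11.5 ± 2.71%, and for *zmnlp3.1* 33.3 ± 8.5% and 18.0 ± 6.52% (SD, n = 3 each). The summed PDC level itself was in WT 167 ± 29.7 FPKM under KCl and 192 ± 16.1 under KNO3 (SD, n = 3 each). For *zmnrt1.1b* it was 217 ± 27.2 and 203 ± 23.5 FPKM, and for *zmnlp3.1* 208 ± 42.7 and 122 ± 22.7 FPKM (SD, n = 3 each). The sums under the 2 treatments overlapped in WT and in *zmnrt1.1b*, whereas in *zmnlp3.1* the highest sum under KNO3, 148 FPKM, lay below the lowest under KCl, 167 FPKM. These sums include the selected gene and were not tested.

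**Figure D2:**
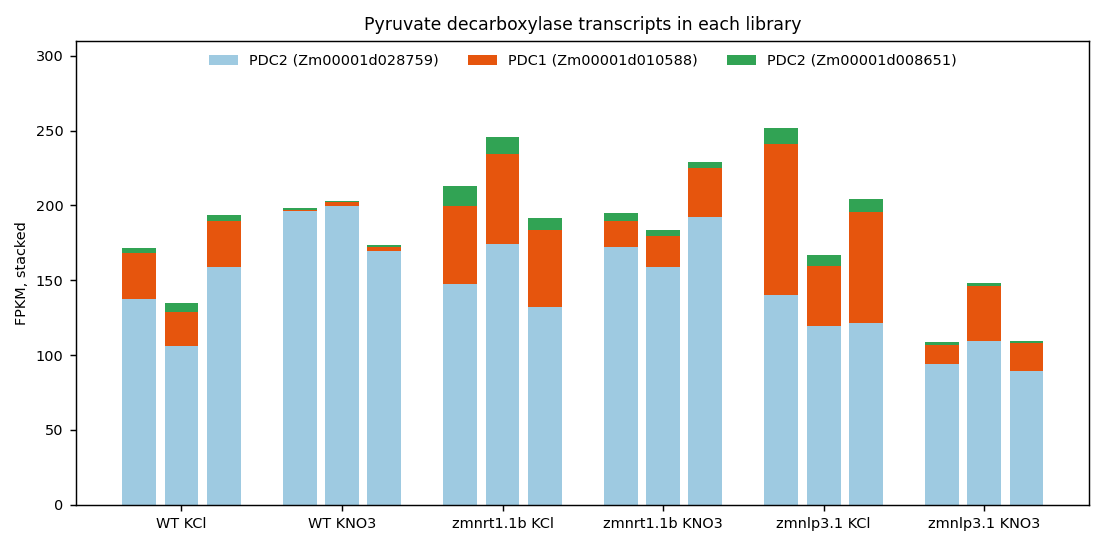
Summed FPKM of the 3 tested PDC genes, stacked in 1 bar per library and grouped by genotype and treatment. The share of Zm00001d010588 was 1.14% in WT under KNO3 and 33.3% in *zmnlp3.1* under KCl. By group mean the bars were lowest in *zmnlp3.1* under KNO3, at 122 FPKM.

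ADH1, which carries out the last step to ethanol, was the most abundant member and responded in opposite directions. Zm00001d033931 (chromosome 1, 278821298 to 278825118, minus strand) had 429, 329 and 455 FPKM under KCl and 618, 627 and 579 FPKM under KNO3 in WT. In *zmnrt1.1b* it had 638, 641 and 511 FPKM under KCl and 358, 409 and 576 FPKM under KNO3. In *zmnlp3.1* it had 694, 514 and 592 FPKM under KCl and 249, 370 and 241 FPKM under KNO3. All KNO3 libraries were higher than all KCl libraries in WT, and all were lower in *zmnlp3.1*. In *zmnrt1.1b* they overlapped, since KNO3 replicate 5 (576 FPKM) lay above the lowest KCl library (511 FPKM).

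The log2 response of ADH1 was 0.60 in WT, −0.44 in *zmnrt1.1b* (adjusted p = 0.158, limma) and −1.08 in *zmnlp3.1* (SE 0.20, adjusted p = 0.00272, limma). The difference of the response between *zmnlp3.1* and WT was −1.69 (SE 0.29, adjusted p = 0.00496, limma) and stayed called without any single library. Between *zmnrt1.1b* and WT it was −1.04 (SE 0.29, adjusted p = 0.0786, limma), and without KNO3 replicate 5 of *zmnrt1.1b* it was −1.24 (adjusted p = 0.0391). Under KNO3, ADH1 was lower in *zmnlp3.1* than in WT by a log2 difference of −1.11 (adjusted p = 0.000833, limma), while under KCl it was 0.57 above WT in both mutants without passing the test (adjusted p = 0.147 for *zmnrt1.1b* and 0.0847 for *zmnlp3.1*). The fall in *zmnlp3.1* went under the required fold without KCl replicate 1 (−0.97), KNO3 replicate 2 (−0.995) or KNO3 replicate 4 (−0.97), with adjusted p up to 0.0182. In the fit of only the groups compared, its call was lost on the adjusted p (0.0518, limma).

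ADH2, a second enzyme of the same step, was lower in *zmnlp3.1* than in the other genotypes after NO3- supply. Zm00001d049059 (chromosome 4, 14333136 to 14336565, plus strand) had 147, 120 and 195 FPKM under KCl and 230, 248 and 207 FPKM under KNO3 in WT. In *zmnrt1.1b* it had 212, 244 and 173 FPKM under KCl and 179, 168 and 238 FPKM under KNO3. In *zmnlp3.1* it had 175, 146 and 97.7 FPKM under KCl and 115, 102 and 73.9 FPKM under KNO3. The treatments overlapped in both mutants and not in WT. The log2 response was 0.59 in WT, −0.11 in *zmnrt1.1b* (adjusted p = 0.788) and −0.51 in *zmnlp3.1* (adjusted p = 0.154, limma). Under KNO3 the level in *zmnlp3.1* differed by −1.26 from WT (adjusted p = 0.00089) and by −1.02 from *zmnrt1.1b* (adjusted p = 0.00785, limma). The latter went under the required fold without *zmnrt1.1b* KNO3 replicate 5 (−0.86) or *zmnlp3.1* KNO3 replicate 4 (−0.83), with the replicate block (−0.99) and with read totals as scaling (−0.95).

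The 2 expressed LDH genes lie on chromosome 5 at a distance of 88055 bases, with no other gene of the table between them. The more abundant, Zm00001d014944 (69327618 to 69329422, plus strand), had 148, 120 and 159 FPKM under KCl and 193, 205 and 197 FPKM under KNO3 in WT. It had 123, 142 and 115 FPKM under KCl and 160, 224 and 265 FPKM under KNO3 in *zmnrt1.1b*, and 107, 98.2 and 78.6 FPKM under KCl and 118, 116 and 119 FPKM under KNO3 in *zmnlp3.1*. The KNO3 libraries were above the KCl libraries in every genotype, by a log2 difference of 0.49 in WT, 0.75 in *zmnrt1.1b* (SE 0.17, adjusted p = 0.00757) and 0.33 in *zmnlp3.1* (adjusted p = 0.201, limma). The increase in *zmnrt1.1b* had an adjusted p under 0.05 but not the required fold. Against WT, the level in *zmnlp3.1* differed by −0.59 under KCl (adjusted p = 0.0347) and by −0.75 under KNO3 (adjusted p = 0.00314, limma), and against *zmnrt1.1b* under KNO3 by −0.85 (adjusted p = 0.00316, limma).

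The second LDH gene, Zm00001d014945 (69417478 to 69418622, plus strand), had 14.4, 16.5 and 20.5 FPKM under KCl and 41.7, 44.7 and 41.3 FPKM under KNO3 in WT. In *zmnrt1.1b* it had 23.6, 22.1 and 20.8 FPKM under KCl and 44.7, 40.5 and 75.6 FPKM under KNO3. In *zmnlp3.1* it had 20.6, 16.5 and 14.1 FPKM under KCl and 10.7, 30.4 and 10.6 FPKM under KNO3. The KNO3 libraries stood above the KCl libraries in WT and *zmnrt1.1b*, while in *zmnlp3.1* only KNO3 replicate 3 did. The log2 response was 1.32 in WT, 1.22 in *zmnrt1.1b* (SE 0.32, adjusted p = 0.0173) and −0.16 in *zmnlp3.1* (adjusted p = 0.782, limma). Under KNO3 the level in *zmnlp3.1* differed by −1.49 from WT (adjusted p = 0.00245) and by −1.77 from *zmnrt1.1b* (adjusted p = 0.00177, limma), the latter call being lost in the fit of only the groups compared (adjusted p = 0.0529). The difference of the response between *zmnlp3.1* and WT was −1.48 (SE 0.45, adjusted p = 0.068, limma), and without *zmnlp3.1* KNO3 replicate 3 it was −1.98 (adjusted p = 0.00301). The increase in *zmnrt1.1b* was lost without KCl replicates 2 or 4 (adjusted p = 0.0504 and 0.0505) or KNO3 replicate 5 (0.94, adjusted p = 0.0683).

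**Figure D3:**
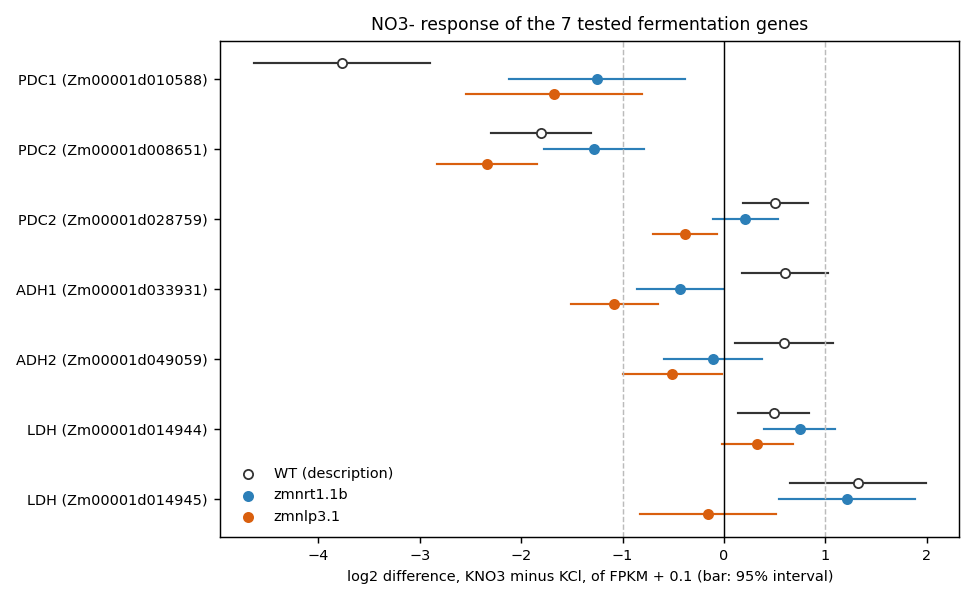
NO3- response of the 7 tested members on the log2 scale, with 1 point per genotype and the 95% interval as a bar (open points, WT, given as a description; dashed lines, the fold required for a call). In *zmnlp3.1*, 6 of the points lay to the left of those of WT, and that of Zm00001d010588 to the right.

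Counted over the tested members, a gene was called when its adjusted p was under 0.05 and its absolute log2 difference over 1, the fold required above. In WT, the contrast of the selection, 1 of 7 members was past these limits upwards and 2 of 7 downwards, beside 2.75% and 2.88% of all genes tested. Of the 2, Zm00001d010588 was there through its selection and the other was Zm00001d008651. The WT counts are therefore a description and no test. In *zmnrt1.1b*, 1 of 7 was called higher (Zm00001d014945) and 2 of 7 lower (Zm00001d010588 and Zm00001d008651), beside 2.03% and 2.62% of all genes. In *zmnlp3.1*, 3 of 7 were called lower (the same PDC genes and ADH1), beside 2.29% of all genes. None was called higher there by limma, beside 1.74% of all genes, with 0 increases at an unadjusted p under 0.05 and 0 by voom. The median log2 response of all genes was −0.0034 for WT, −0.026 for *zmnrt1.1b* and 0.0099 for *zmnlp3.1*.

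For the comparisons with WT, the selected gene was left out of the counts, and both mutants were set against the same WT libraries. Under KCl, 1 of 6 members was called in *zmnrt1.1b* and 1 of 6 in *zmnlp3.1*, in both cases Zm00001d008651, beside 2.06% and 3.66% of all genes. Under KNO3, 1 of 6 was called in *zmnrt1.1b*, again Zm00001d008651, beside 6.54% of all genes. In *zmnlp3.1* it was 3 of 6, both ADH genes and Zm00001d014945, all lower, beside 9.7% of all genes. The response differed from WT in 1 of 6 members in *zmnlp3.1*, ADH1, beside 2.65% of all genes. In *zmnrt1.1b* limma called 0 of 6, beside 1.04% of all genes, with 2 members at an unadjusted p under 0.05 and 0 called by voom.

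Between the mutants under KNO3, 3 of 7 members were called, Zm00001d008651, ADH2 and Zm00001d014945, all lower in *zmnlp3.1*, beside 4.97% of all genes. A further 3 members had an adjusted p under 0.05 without the fold, also lower in *zmnlp3.1*, so that Zm00001d010588 was the only tested member without such a difference. At an adjusted p under 0.05 alone it was thus 6 of 7 members, beside 15.4% of all genes. Under KCl limma called 0 of 7, beside 3.78% of all genes, with 2 members at an unadjusted p under 0.05 and 0 called by voom. For the difference of the response between the mutants it also called 0 of 7, beside 1.32% of all genes, with 4 members at an unadjusted p under 0.05 and 0 called by voom. Scaling the libraries by their read totals raised the median difference of all genes between *zmnlp3.1* and WT under KNO3 by 0.13 and changed the split of calls from 877 higher and 1647 lower to 1316 higher and 1248 lower. Under that scaling ADH1 was lower by a log2 difference of −0.97, under the required fold, and no tested member changed direction.

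Genes that surround fermentation were counted from lists of protein descriptions, beginning with haemoglobin. Non-symbiotic haemoglobins bind oxygen and turn over nitric oxide. Of 3 genes, 2 were called higher in WT, 2 in the roots of *zmnrt1.1b*, and 1 in those of *zmnlp3.1*, beside 2.75%, 2.03% and 1.74% of all genes. The difference between genotypes was not tested for the list, nor for those that follow. The list medians were 2.23, 1.64 and 0.76 on the log2 scale, in this order of genotypes, which is kept for the lists below. Zm00001d048020 had 659 ± 117 FPKM under KCl and 2051 ± 329 under KNO3 in *zmnrt1.1b* (response 1.64, adjusted p = 0.00116, limma), and in *zmnlp3.1* 822 ± 352 and 1314 ± 256 FPKM (0.76, adjusted p = 0.0708, SD, n = 3 each). Without KCl replicate 1 the *zmnlp3.1* response was called (1.055, adjusted p = 0.023, limma). Over the fits that left out a library it ranged from 0.38 to 1.055. Zm00001d038718, described as non-symbiotic hemoglobin 1, rose by 2.54 in *zmnrt1.1b* and by 1.84 in *zmnlp3.1* (adjusted p = 3.65e-06 and 8.3e-05, limma).

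Low-oxygen sensing was represented by 19 tested genes of 23. In Arabidopsis, plant cysteine oxidases use oxygen to mark group VII ERF transcription factors for degradation, and LBD41 is induced by oxygen shortage. Of the 19, 9 were called higher and 1 lower in WT, beside 2.75% and 2.88% of all genes, 6 were called higher in *zmnrt1.1b*, beside 2.03%, and 2 in *zmnlp3.1*, beside 1.74%. At an unadjusted p under 0.05, 9 were higher in *zmnrt1.1b*, whereas *zmnlp3.1* had 8 higher and 3 lower, with no share of all genes counted at that limit. The list medians were 0.39, 0.84 and 0.24. The most abundant, Zm00001d027925 (RAP2-2), had 293 ± 35.3 and 662 ± 111 FPKM under KCl and KNO3 in *zmnrt1.1b* (response 1.17, adjusted p = 0.000535, limma) while *zmnlp3.1* had 297 ± 41.3 and 353 ± 65.8 FPKM (0.24, adjusted p = 0.377, SD, n = 3 each). For Zm00001d027929 (ERF073) the responses were 0.84 and 0.73 (adjusted p = 0.00473 and 0.0114), under the required fold. The LBD41 genes Zm00001d010751, Zm00001d029506 and Zm00001d038717 rose by 1.61, 1.34 and 1.27 in *zmnrt1.1b* (adjusted p = 7.5e-06, 0.00123 and 0.000998, limma). In *zmnlp3.1* their responses were 0.81, 1.16 and 0.57, of which that of Zm00001d029506 was called (adjusted p = 0.00329, limma) and went to 0.94 without KNO3 replicate 3. The other gene called in *zmnlp3.1*, named after its values were seen, was a second ERF073 gene, Zm00001d027928. Its response was 1.07 in *zmnlp3.1* (adjusted p = 0.0151) and 0.99 in *zmnrt1.1b* (adjusted p = 0.0199, limma), the latter just under the required fold. The call in *zmnlp3.1* was lost without KCl replicate 4 (0.65) or KNO3 replicate 2 (0.94) and in the fit of only the groups compared (adjusted p = 0.131). In *zmnrt1.1b* the response passed the fold without KCl replicate 2 (1.08) or KNO3 replicates 4 or 5 (1.11 and 1.03), and with the replicate block (1.11). For the plant cysteine oxidase 2 gene Zm00001d039166 the response was 1.51 in *zmnrt1.1b* (adjusted p = 0.000293) and 0.67 in *zmnlp3.1* (adjusted p = 0.0423, limma), the latter under the required fold.

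Around pyruvate, the substrate of both branches, few genes were called. The pyruvate dehydrogenase complex feeds pyruvate to respiration, and of its 17 tested genes 2 were called higher in WT, 2 in the roots of *zmnrt1.1b*, and 1 in those of *zmnlp3.1*, beside 2.75%, 2.03% and 1.74% of all genes. At an unadjusted p under 0.05, 3, 7 and 11 genes were higher, with no share of all genes counted at that limit. The list medians were 0.032, 0.27 and 0.35. Zm00001d031659, a mitochondrial E1 beta subunit, had a response of 1.12 in *zmnrt1.1b* (adjusted p = 0.00033) and 0.74 in *zmnlp3.1* (adjusted p = 0.0061, limma). Zm00001d017985, a mitochondrial E1 alpha subunit, had 0.45 and 0.46. Zm00001d041839, an acetyltransferase subunit described as chloroplastic, rose by 1.59 and by 1.17 (adjusted p = 0.000336 and 0.00306, limma), the latter falling to 0.81 without *zmnlp3.1* KCl replicate 4. Its call in *zmnlp3.1* was also lost in the fit of only the groups compared (adjusted p = 0.0814, limma).

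Pyruvate kinase and pyruvate, phosphate dikinase form or consume pyruvate at the end of glycolysis. Of 15 tested genes of this list, 1 was lower in WT, the dikinase Zm00001d038163, and 1 was called lower in *zmnlp3.1*, beside 2.88% and 2.29% of all genes, with medians of −0.0030, 0.36 and 0.18. That gene, Zm00001d006520, is described as a dikinase regulatory protein and had 5.02 ± 1.24 FPKM under KCl and 2.39 ± 0.617 under KNO3 (SD, n = 3 each, response −1.05, adjusted p = 0.0111, limma). The call was lost without KCl replicate 1 or KNO3 replicates 2 or 4 (−0.86, −0.93 and −0.96). It was also lost in the fit of only the groups compared (adjusted p = 0.068, limma) and with a pseudocount of 1 FPKM (−0.83). In *zmnrt1.1b* limma called 0 of 15, beside 2.03% of all genes higher and 2.62% lower. At an unadjusted p under 0.05 there were 10, 8 of them higher, and voom called 0. Without KNO3 replicate 2 of *zmnrt1.1b*, Zm00001d006520 was called there (−1.05, adjusted p = 0.0144, limma). The most abundant genes, the cytosolic pyruvate kinases Zm00001d040446 and Zm00001d023379, had *zmnrt1.1b* responses of 0.40 and 0.13 and *zmnlp3.1* responses of 0.28 and −0.23, and Zm00001d038163 had −0.71 and −0.76, none past the test.

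Sucrose synthase splits sucrose for glycolysis. Of 6 tested genes, 1 was called lower in *zmnlp3.1*, sucrose synthase 1 (Zm00001d045042), beside 2.29% of all genes, and the list medians were 0.26, 0.37 and 0.31. Under KCl and KNO3, *zmnrt1.1b* had 580 ± 30.3 and 370 ± 63.1 FPKM of it and *zmnlp3.1* 511 ± 116 and 238 ± 36.2 FPKM, against 281 ± 28.0 and 334 ± 40.2 FPKM in WT (SD, n = 3 each). Its response was −0.66 in *zmnrt1.1b* (adjusted p = 0.0196, under the required fold) and −1.09 in *zmnlp3.1* (adjusted p = 0.00109, limma), the latter going under the fold without KCl replicate 1 (−0.94) or KNO3 replicate 4 (−0.99). Sucrose synthase 2 (Zm00001d047253) had responses of 0.41 and 0.21. In *zmnrt1.1b* limma called 0 of 6, beside 2.03% of all genes higher and 2.62% lower, with 4 at an unadjusted p under 0.05 and 0 by voom.

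Among the ADH-like proteins other than ADH1 and ADH2, 1 of 6 was lower in WT, beside 2.88% of all genes. This was Zm00001d027996, with 57.3 ± 4.81 and 16 ± 0.492 FPKM (SD, n = 3 each), and the list medians were −0.18, −0.30 and −0.10. In the mutants limma called 0 of 6, with 4 *zmnrt1.1b* and 3 *zmnlp3.1* responses at an unadjusted p under 0.05 and 0 by voom. Zm00001d027996 had responses of −0.90 and −0.44 in the mutants, Zm00001d030348 of −0.37 and 0.21, and Zm00001d051227 of −0.31 and −0.11. In *zmnrt1.1b*, Zm00001d027996 was called without KCl replicate 4 (−1.09) or KNO3 replicate 5 (−1.02), with adjusted p = 0.00371 and 0.00645 from limma. For ethanol oxidation and acetate use (7 genes), alanine aminotransferase, which draws pyruvate into alanine (4 genes), and D-lactate dehydrogenase (1 gene), limma and voom called 0 genes in either mutant, beside the same shares of all genes by limma. At an unadjusted p under 0.05 there were 1, 3 and 1 genes for *zmnrt1.1b* and 1, 3 and 0 for *zmnlp3.1*. The responses in *zmnrt1.1b* and *zmnlp3.1* were −0.07 and 0.24 for the acetyl-coenzyme A synthetase Zm00001d016659 and −0.72 and −0.16 for the aldehyde dehydrogenase Zm00001d044339. They were 0.23 and −0.49 for the alanine aminotransferase Zm00001d030557, 0.68 and 0.04 for Zm00001d014258, and 0.59 and 0.19 for the D-lactate dehydrogenase Zm00001d007907.

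**Figure D4:**
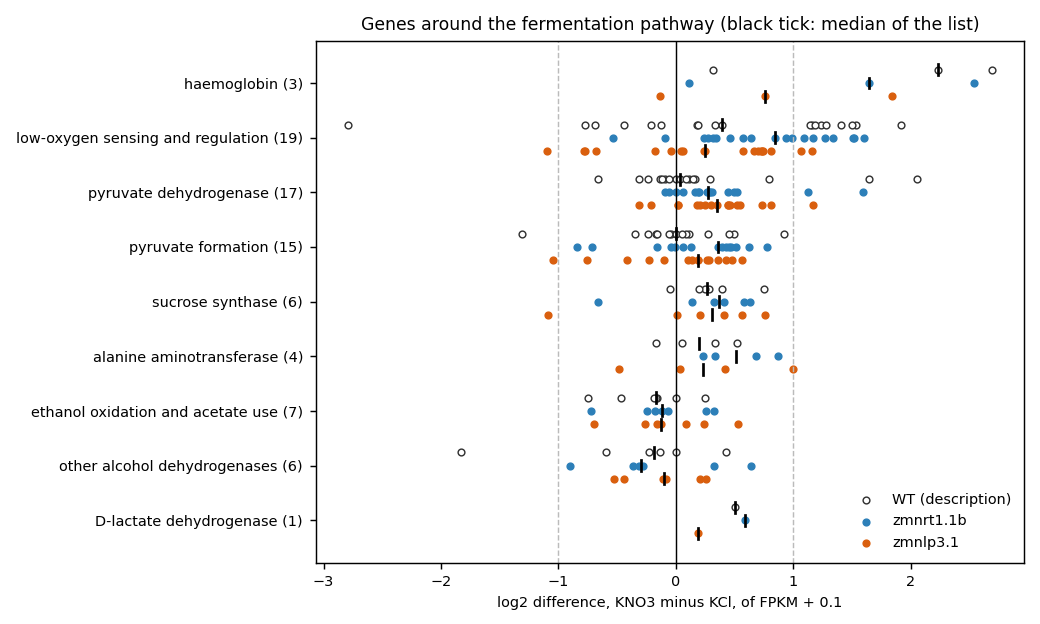
Log2 NO3- response of every tested gene of 9 lists around the pathway, with 1 point per gene and genotype (open points, WT, given as a description) and a black tick at the list median; numbers of genes stand beside the names. The haemoglobin medians were 2.23, 1.64 and 0.76, and those of the other alcohol dehydrogenases −0.18, −0.30 and −0.10.

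The genes whose level was most like that of Zm00001d010588 over the 18 libraries were named as a description, by Pearson's r of log2(FPKM + 0.1). They were Zm00001d017425 (cytochrome b5 isoform E, r = 0.96), Zm00001d044683 (chalcone isomerase-like protein 2, r = 0.94), Zm00001d036164 (caffeine synthase 3, r = 0.94), Zm00001d029628 (cysteine proteinase inhibitor 8, r = 0.93) and Zm00001d045843 (an aspartyl protease, r = 0.93). Zm00001d017425 averaged, under KCl and KNO3, 94.0 and 23.8 FPKM for WT, 158 and 116 FPKM for *zmnrt1.1b* and 130 and 76.5 FPKM for *zmnlp3.1*. Of the other members, Zm00001d008651 had r = 0.82, ADH1 0.02, ADH2 −0.28, Zm00001d028759 −0.38, Zm00001d014945 −0.41 and Zm00001d014944 −0.57. The points of each r share the group structure and the scaling of their libraries.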

How the data were processed

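The authors extracted RNA from roots, sequenced 150 bp paired-end reads and aligned them to B73 RefGen_v4 with HISAT2 (v2.0.5). The deposited values are FPKM, computed by the authors from reads, gene length and library size. The submitters' processing notes also name fastp and StringTie (v1.3.3b), and the counter is not given in the sources used here. Multiplied by gene length, 100% of values were whole multiples of a step in each library (tolerance 0.01), which gave the reads. The deposited scaling differed from read totals by factors of 0.925 to 1.11 and equalled median ratios over genes.

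Genes with at least 1 FPKM in at least 3 libraries were fitted as log2(FPKM + 0.1), which understates changes of low genes, in limma (v3.58.1, run under R v4.3.3) with a variance trend, 6 group means and 12 residual degrees of freedom. Two-sided p-values were adjusted by Benjamini-Hochberg over 26011 genes. FPKM are not counts, so the DESeq2 test of the study was not used. Self-tests used simulated data. Members, lists and tests were chosen with earlier results of these data known. All members were named, and of each list the 2 most abundant genes and up to 4 called ones. Genes carry the IDs of the table without the prefix gene_ that some have there. Alternatives were another pseudocount (1 FPKM), minimum (0.1 FPKM or none), rescaling, a replicate block, fits restricted to the groups compared, voom on the reads, read totals as scaling (chosen after seeing the data) and each library left out. Python (v3.11.15) with pandas (v2.3.3) and matplotlib (v3.10.9) handled tables and plots.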

Additional observations from a re-analysis of the deposited data

Results flagged for a closer look

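At an adjusted p under 0.05 alone, the NO3- response differed between *zmnlp3.1* and WT in 2 of the 6 members tested for it. By the same limma test of the difference itself, 4.89% of all genes passed that limit. For ADH1 (Zm00001d033931) the difference was −1.69 on the log2 scale (adjusted p = 0.00496). For the PDC2 gene Zm00001d028759 it was −0.89 (adjusted p = 0.0251), below the fold required for a call. Its adjusted p rose to as much as 0.0702 when a library was left out. In both genes the KNO3 libraries lay above the KCl libraries in all 3 WT libraries and below them in all 3 *zmnlp3.1* libraries.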

How the results depend on the processing

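Of 113 values named for single genes, 881 of 904 re-computed under other settings and 701 of 756 with a library left out were counted as unchanged. For tested values this meant the same direction and side of the threshold. For values given as a description it meant a move smaller than the largest SD of the groups compared. Rescaling by median ratios, which is among the 904, could change none, since the deposited values carry that scaling already. The number of members called lower in *zmnrt1.1b* went from 2 to 1 with a minimum of 0.1 FPKM, with no minimum and with the replicate block, where the response of Zm00001d010588 had adjusted p = 0.0594, 0.0763 and 0.059. In *zmnlp3.1* it went from 3 to 1 in the fit of only the groups compared. Under KCl between *zmnlp3.1* and WT it went from 1 to 0 with a pseudocount of 1 FPKM and in the fit of only the groups compared. Over all genes, that fit took the calls of the *zmnlp3.1* response from 453 higher and 595 lower to 209 and 241. Those of *zmnrt1.1b* went from 527 and 681 to 461 and 576, and those of WT from 716 and 750 to 802 and 765. For the response against WT, voom called 3 members in place of 1 in *zmnlp3.1*. The replicate block called 2 there and 1 in place of 0 in *zmnrt1.1b*. With the replicate block, the difference of Zm00001d010588 between the mutants under KNO3 turned to 0.025, and the response of ADH1 in *zmnlp3.1* was −0.97. Same-numbered libraries of a genotype had correlations of −0.07 to 0.27 and were not taken as pairs. With a pseudocount of 1 FPKM the WT response of Zm00001d008651 was −1.29.

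With each library left out, called members numbered 0 to 1 higher and 1 to 2 lower in *zmnrt1.1b*, 1 to 3 lower in *zmnlp3.1*, 0 to 1 between *zmnlp3.1* and WT under KCl, and 0 to 1, 1 to 3 and 0 to 1 for the response of *zmnrt1.1b* against WT, *zmnlp3.1* against WT and *zmnlp3.1* against *zmnrt1.1b*. Values that changed sign were the responses of ADH2 in *zmnrt1.1b* (−0.26 to 0.0088) and, in *zmnlp3.1*, of Zm00001d014945 (−0.66 to 0.097), Zm00001d044339 (−0.39 to 0.067), Zm00001d051227 (−0.30 to 0.022) and Zm00001d014258 (−0.13 to 0.15). The difference of Zm00001d010588 between the mutants ranged from −0.0096 to 0.66 under KCl and from −0.54 to 0.21 under KNO3. Under KNO3, 3 to 4 members were called between *zmnlp3.1* and WT, with Zm00001d028759 gained without WT replicate 4 (−1.02) or *zmnlp3.1* replicate 3 (−1.03), and 2 to 4 between the mutants, with ADH2 lost in 2 fits and Zm00001d014944 gained without *zmnrt1.1b* replicate 2 (−1.05). The causes were not tested, and counting error was not separated from the spread between libraries.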
